A study of Mus musculus with 16 samples.

Results

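The microRNA miR-34a was followed across 8 mouse myeloid and dendritic cell (DC) populations measured on miRNA arrays. It was taken by its name in the files, mmu-miR-34a, and it is 1 of 604 miRNAs present on both array designs of the study. Its signal was high in the 3 conventional DC populations of spleen and low in the 5 populations of bone marrow. Among the spleen DC it was lower in CD8+ DC than in CD4+ DC and CD4-CD8- DC.

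MicroRNAs are short RNAs that guide Argonaute proteins to messenger RNAs, which they pair with mainly through the seed, bases 2 to 8 from the 5′ end. The gene of miR-34a is a known transcriptional target of the tumour suppressor p53, and the miR-34 family is best known for restraining cell cycle and survival genes. In cultured monocyte-derived DC, miR-34a has been linked to differentiation through Wnt and Notch ligands. DC develop in bone marrow from progenitors that also give rise to monocytes and macrophages. Conventional DC present antigen to T cells, and plasmacytoid DC are known for producing type I interferon.

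All populations were sorted from female C57Bl/6 mice aged 6 weeks, without culture, and each had 2 biological replicates made of pooled animals. The progenitors were lineage-negative CD135+ marrow cells from pools of 15 mice, separated into MP (CD117+ CD115-, an abbreviation the labels do not spell out), MDP (CD117+ CD115+) and CDP (CD117 low CD115+). Gr1+ monocytes (CD11b+ CD115+ Gr1+) and plasmacytoid DC (PDC; B220+ CD11c intermediate SiglecH+ CD317+) came from marrow of pools of 5 mice. Spleens of pools of 8 mice gave CD4+ DC, CD8+ DC and CD4-CD8- DC, all CD11c+ and CD3-, with CD86 listed for the CD8+ DC and B220- for the CD4+ and CD8+ DC. The labels list no altered genotype and no agent. Spleen and conventional DC identity therefore coincide in these samples and cannot be told apart. The genes behind the sorting markers have no probe on a miRNA array, so the sort could be checked only against miRNAs of other cell types.

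The mature sequence of miR-34a comes from RefSeq (build GRCm38.p6), where it lies at chr4:150068473-150068494 on the plus strand. In the RefSeq gene table Mir34a overlaps no other gene, and its nearest protein-coding neighbours are H6pd and Gpr157. It is shown because the seed, in capitals, defines the family described later:
miR-34a-5p: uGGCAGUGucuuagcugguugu

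The hairpin from which it is cut occupies chr4:150068454-150068555 of the same build. Capitals mark the 2 arms that become mature miRNAs, of which the first is miR-34a-5p.
Mir34a hairpin: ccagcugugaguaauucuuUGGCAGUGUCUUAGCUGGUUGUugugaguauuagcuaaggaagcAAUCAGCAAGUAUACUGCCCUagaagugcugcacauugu

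The array reads miR-34a through 2 DNA probes that pair with its 3′ part, and each probe was printed in 10 spots per array. The shorter probe has 19 bases and pairs with bases 4 to 22 of the miRNA. The longer one has 20 bases and also pairs with base 3, so neither covers the whole seed.
A_54_P2498: acaaccagctaagacactg
A_54_P2499: acaaccagctaagacactgc

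Each value below is the log2 of the signal divided by a scaling percentile, the array's own 75th percentile over the 88 miRNAs detected on all 16 arrays, so that 0 is a signal equal to it. A miRNA was detected on an array when at least 0.5 of the spots of a probe were well above background by the scanner software's own test. The 8 arrays of the first replicates were of design 1 and those of the second replicates of design 2, each on 1 slide with 1 scan. On each array 16.7 to 25.4 percent of spots were well above background, 0 were saturated, and 116 to 174 miRNAs were detected. The number of arrays limits the precision.

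miR-34a was detected on all 16 arrays. In CD4+ DC the log2 values were 0.12 and 0.10, which put the signal at 109 and 107 percent of the scaling percentile. CD4-CD8- DC gave 0.36 and -0.15, or 129 and 90.3 percent. In CD8+ DC the values were -1.43 and -1.14, or 37.1 and 45.5 percent. The CD8+ DC arrays thus lay below the other 4 spleen DC arrays, without overlap.

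The marrow populations lay far lower, between 2.81 and 10.7 percent of the scaling percentile. MP gave log2 values of -3.39 and -3.22, and MDP gave -4.03 and -4.12. CDP arrays were almost identical at -4.84 and -4.83. Within the marrow, MP was highest and did not overlap with any other marrow population.

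Gr1+ monocytes gave -4.90 and -5.13. PDC was the population whose replicates differed most, at -4.10 and -5.16. PDC replicate 1 stood with MDP and PDC replicate 2 stood with the monocytes. Their unscaled signals were close, 26.68 and 24.58, while the scaling percentiles differed: that of PDC replicate 2, at 876.2, was the highest of the 16 arrays.

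**Figure D1:**
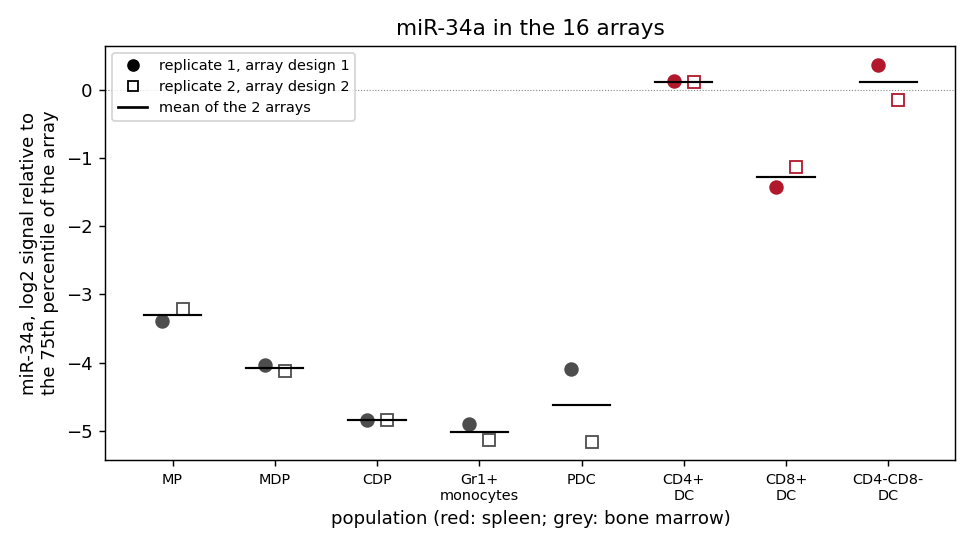
The vertical axis gives the log2 of miR-34a signal over the array's scaling percentile, for the 8 populations on the horizontal axis. Filled circles are replicate 1 on design 1, open squares are replicate 2 on design 2, bars are the means of the 2 arrays, and the 6 spleen arrays in red all lie above the 10 marrow arrays in grey.

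Ordered by mean ± SD (n = 2 each, an SD that includes the offset between designs), the populations ran from CD4+ DC at 0.11 ± 0.011 and CD4-CD8- DC at 0.11 ± 0.36 through CD8+ DC at -1.28 ± 0.21. MP followed at -3.31 ± 0.12, MDP at -4.08 ± 0.064 and PDC at -4.63 ± 0.75. CDP at -4.84 ± 0.004 and Gr1+ monocytes at -5.01 ± 0.16 ended the order. Of the 7 neighbouring pairs in this order, 2 were called by limma at an adjusted p under 0.05, the step from CD4-CD8- DC down to CD8+ DC and the step from CD8+ DC down to MP. Over all miRNAs tested, 32.7 percent of these pairs were called. For the other 5 steps the adjusted p missed the threshold. Without PDC replicate 1, or without PDC replicate 2, 4 of the 7 were called, and without CD8+ DC replicate 1 only 1 was.

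The limma F test over the 8 population means gave an adjusted p of 1.67e-06 for miR-34a. In that test 74.3 percent of the 175 miRNAs tested were called, so a call by itself was common. The distance between its highest and lowest population means was 5.13, the third largest of the 175, whose median distance was 1.42.

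At the level of single spots, spleen DC and marrow populations also separated. The 115 spots used on the 6 spleen DC arrays had processed signals from 77.5 to 1320 with a median of 430. The 194 spots used on the 10 marrow arrays ran from 2.3 to 92.4 with a median of 23.3. The ranges overlapped where the shorter probe on the CD8+ DC arrays met the longer probe on the MP arrays, while within a probe the spots did not overlap. Negative control spots had a median signal of 3 to 5.7 per array and a 95th percentile of 8.41 to 13.

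All 120 spots on spleen DC arrays were well above background. On the marrow arrays the longer probe was well above background in all of its spots and the shorter probe in 30 of 100. Low marrow values therefore rest mainly on the longer probe, close to the background of the array.

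Of the 320 spots, 11 carried an outlier flag and were left out. A flagged spot on the MP replicate 1 array read 11437, beside 48.5 to 69.0 in the other spots of that probe. Keeping it raised the MP mean to -1.38 and brought MP next to CD8+ DC.

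**Figure D2:**
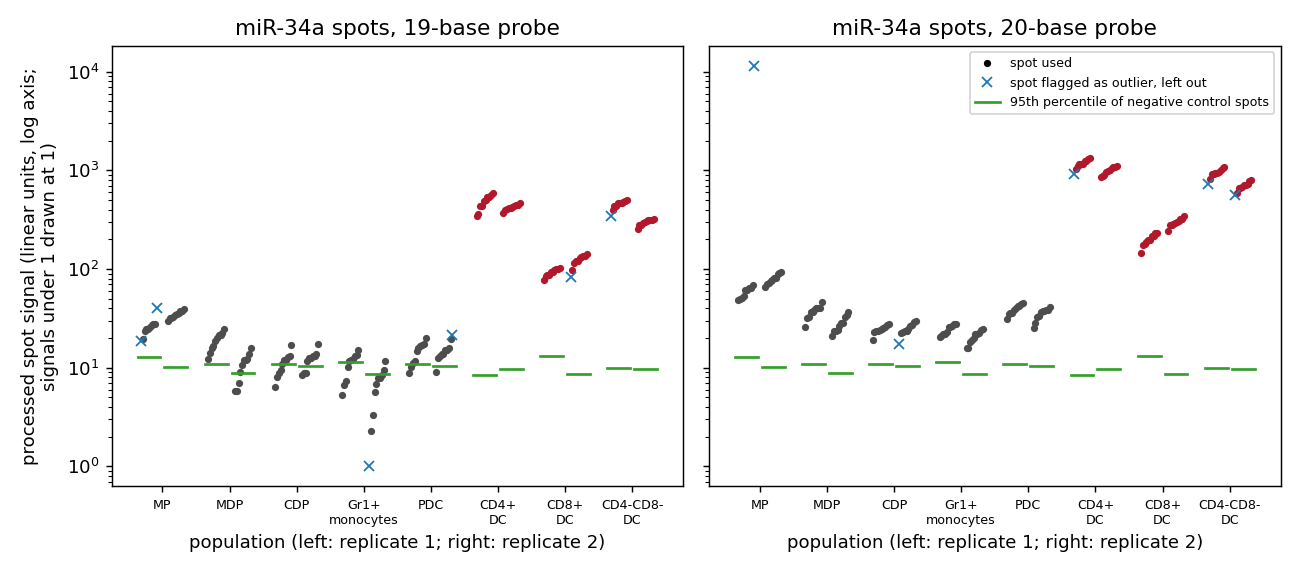
The vertical axes give the processed signal of each miR-34a spot on a log axis, by population, with the 19-base probe on the left and the 20-base probe on the right. Dots are spots used, crosses are spots left out as flagged, and green lines mark the 95th percentile of the negative controls, near which many marrow spots of the shorter probe lie while the spleen DC spots lie well above it.

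Where the signal allowed it, the probes gave nearly the same differences. From the other spleen DC to CD8+ DC, where all spots were well above background, the shorter probe fell by 1.37 on the log2 scale and the longer probe fell by 1.41. The longer probe read 2.10 to 2.49 times the shorter one on the spleen DC arrays and 2.30 times on each MP array, the marrow population in which the shorter probe was well above background in every spot. On most other marrow arrays the shorter probe was near background, so a ratio there has little meaning.

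The first comparison asked how conventional DC differ from CDP, the marrow progenitor of DC. The mean of the spleen DC was 22.3-fold above CDP, a log2 difference of 4.48 ± 0.23 (SE; limma adjusted p = 5.86e-07). It was 4.52 on design 1 and 4.44 on design 2. In this comparison 56.6 percent of the miRNAs tested were called and 37.1 percent were called higher. The rise of miR-34a was the third largest of 175, beside a median difference of 0.26 over all miRNAs tested. With another background correction (normexp, which adds an offset of 50 to all signals) the difference was 2.55 and still called.

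Each spleen population rose against CDP on its own. CD4+ DC exceeded CDP 30.9-fold, by 4.95 ± 0.28 (limma adjusted p = 1.21e-06), where 50.3 percent of miRNAs were called and 29.7 percent called higher. For CD4-CD8- DC the rise was 30.8-fold, 4.94 ± 0.28 (limma adjusted p = 3.26e-06), with 43.4 percent called and 29.1 percent called higher. CD8+ DC rose 11.7-fold, 3.55 ± 0.28 (limma adjusted p = 1.14e-05), in a comparison that called 69.1 percent of miRNAs, and 48.6 percent higher. These 3 comparisons share the CDP arrays. The normexp background gave 2.92 for CD4+ DC, 2.92 for CD4-CD8- DC and 1.79 for CD8+ DC, all called.

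Within the spleen, the question was whether the DC subsets differ. CD8+ DC lay 2.63-fold below the mean of the other 2 subsets, a log2 difference of -1.40 ± 0.24 (limma adjusted p = 0.00273), with -1.67 on design 1 and -1.12 on design 2. In this comparison 33.7 percent of miRNAs were called and 8.0 percent were called lower, and under the settings used here no miRNA tested had a larger fall. The call was lost with the normexp background (-1.13, limma adjusted p = 0.224) and with flagged spots kept (-1.46, limma adjusted p = 0.167). It also depended on scaling in size: with the percentile taken over all miRNAs the difference was -2.14, a setting that moves the median of all miRNAs by -0.75. The array identifiers in the file headers carry a position number, taken here as the row on the slide, which no source states. On both slides it was 1 for CD8+ DC and the progenitors and 2 for CD4+ DC, CD4-CD8- DC, monocytes and PDC. This number and the subset cannot be told apart in this comparison, and an effect of position was not tested.

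CD4+ DC and CD4-CD8- DC had nearly equal means. Their log2 difference was 0.004 ± 0.28, with a 95 percent confidence interval of -0.64 to 0.65 (limma adjusted p = 1.0), so a difference of about the SD of CD4-CD8- DC could not be detected. The sign differed between the designs, -0.24 on design 1 and 0.25 on design 2. In this comparison 4.57 percent of miRNAs were called. That count of 8 was 2 without CD4+ DC replicate 1, 1 without CD4+ DC replicate 2, 11 without CD4-CD8- DC replicate 1 and 0 without CD4-CD8- DC replicate 2, and it was 0 with no replicate block.

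Plasmacytoid DC did not share the high level of the conventional DC. The mean of the spleen DC exceeded PDC 19.3-fold, by 4.27 ± 0.23 (limma adjusted p = 1.22e-06), where 42.9 percent of miRNAs were called and 24.6 percent called higher. It was 3.78 on design 1 and 4.76 on design 2. No other miRNA tested had a larger difference in this comparison under these settings. The normexp background gave 2.69, also called.

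PDC was set against CDP as well. The log2 difference was 0.21 ± 0.28, with an interval of -0.43 to 0.85 (limma adjusted p = 0.714), in a comparison that called 37.7 percent of miRNAs. It turned from 0.74 on design 1 to -0.32 on design 2. Without PDC replicate 2 the difference was 0.71 and called (limma adjusted p = 0.0417), and without PDC replicate 1 it was -0.29 and not called, so each PDC array by itself gives another answer. In these fits the lone PDC array is assumed to vary like the other populations.

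Against Gr1+ monocytes, the mean of the spleen DC was 25.3-fold higher, by 4.66 ± 0.23 (limma adjusted p = 9.88e-07), where 41.1 percent of miRNAs were called and 24.0 percent called higher. The designs gave 4.59 and 4.73. The normexp background, which raised the monocyte mean to -1.82, reduced the difference to 1.54, still called, and moved the median of all miRNAs by -0.95. PDC and monocytes differed by 0.39 ± 0.28, with an interval of -0.26 to 1.03 (limma adjusted p = 0.344; 41.1 percent called). Without PDC replicate 2 this difference was 0.89 and called (limma adjusted p = 0.0167), and with the normexp background it was -1.15 (limma adjusted p = 0.0328), where the median of all miRNAs moved by -0.88.

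Among the progenitors the means descended from MP to MDP to CDP on both designs. MP exceeded CDP 2.89-fold, by 1.53 ± 0.28 (limma adjusted p = 0.00589; 21.1 percent of miRNAs called). This call was lost with scaling over all miRNAs (0.78, limma adjusted p = 0.161), with quantile normalization (0.99, limma adjusted p = 0.104), with the normexp background (0.58, limma adjusted p = 0.969) and without MP replicate 2 (1.33, limma adjusted p = 0.0525), and with flagged spots kept the difference was 3.47. The single steps were smaller: MDP minus MP was -0.77 ± 0.28 (limma adjusted p = 0.136; 10.3 percent of miRNAs called) and CDP minus MDP was -0.76 ± 0.28 (limma adjusted p = 0.24; 0.0 percent called). Each step had the same sign on both designs, -0.64 and -0.90 for the first and -0.81 and -0.71 for the second. The first was -0.14 with the normexp background and -2.67 with flagged spots kept, and the second was -0.29 with scaling over all miRNAs, none of them called. The 18 miRNAs called in MDP minus MP became 0 without MDP replicate 1, and 2 without MDP replicate 2 or without MP replicate 2. In the comparison of CDP with MDP, limma called 0 miRNAs under the settings used here, 26 had an unadjusted p under 0.05, and miR-34a had one of 0.0261.

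Monocytes lay 1.91-fold below MDP, from which they descend, a difference of -0.94 ± 0.28 (limma adjusted p = 0.0269), where 37.7 percent of miRNAs were called and 17.7 percent called lower. Without any single one of the 4 arrays compared, whether MDP replicate 1 or 2 or monocyte replicate 1 or 2, the call was lost (limma adjusted p from 0.0889 to 0.123). With the normexp background it was 0.57, a setting that moves the median of all miRNAs by 0.61 in this comparison.

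Over all 28 pairs of populations, 21 were called for miR-34a. All 15 pairs of a spleen DC population with a marrow population were called, with differences of 4.06-fold to 34.9-fold and a largest limma adjusted p of 0.000292. Over all miRNAs tested, 48.0 percent of these combinations of miRNA and pair were called. Of the 10 pairs within the marrow 4 were called (31.4 percent over all miRNAs), and of the 3 pairs within the spleen 2 were called (21.5 percent). With the normexp background or with flagged spots kept, 12 of the 15 pairs of spleen and marrow were called, and 0 of the 3 within the spleen. Within the marrow, 1 of the 10 was called with normexp or quantile normalization and 2 with scaling over all miRNAs, while 6 were called without PDC replicate 1 and 7 without PDC replicate 2. Without CD8+ DC replicate 1, or with all miRNAs tested, 0 of the 3 spleen pairs were called.

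**Figure D3:**
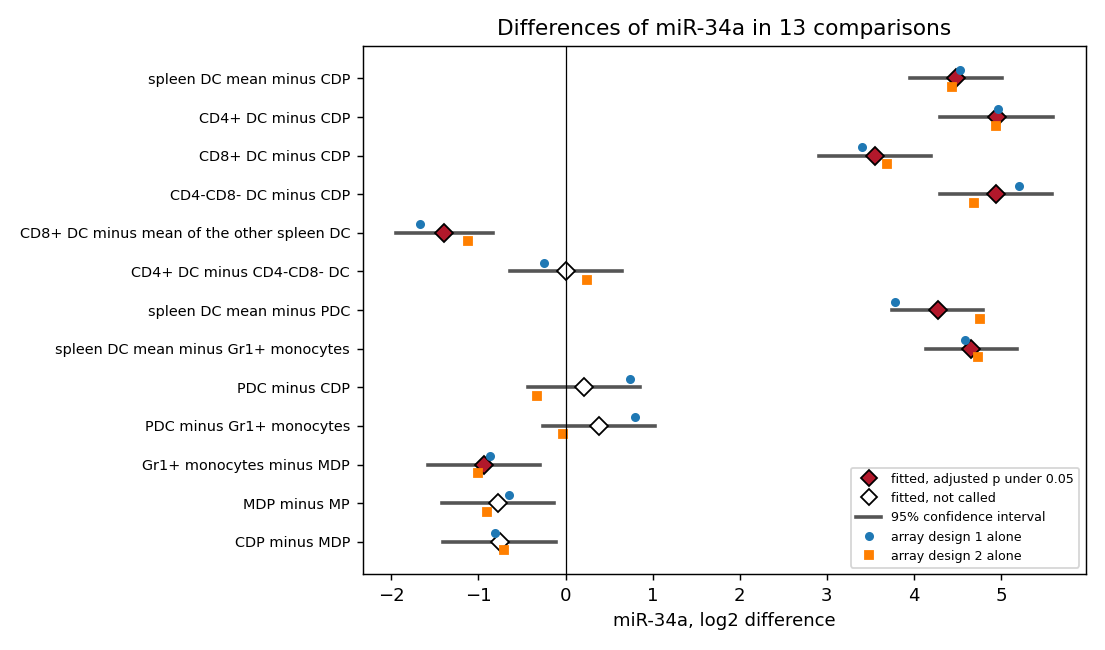
The horizontal axis gives the log2 difference of miR-34a in the 13 comparisons listed on the vertical axis. Diamonds are fitted differences, red where the adjusted p was under 0.05, bars are 95 percent confidence intervals, and small markers are each array design alone; comparisons of spleen DC with marrow populations lie between 3.55 and 4.95, and those of PDC with CDP and with monocytes have intervals that include 0.

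A level higher on every spleen DC array than on any marrow array of the same design was not common. Only the order was asked for here, whatever the level or the distance. Of the 175 miRNAs tested, 14, or 8.0 percent, had all spleen DC arrays above all marrow arrays on both designs. For miR-34a the distance between the lowest spleen DC array and the highest marrow array was 1.96 on design 1 and 2.09 on design 2. Ranked by the smaller of the 2 distances, miR-342-3p came next, with 0.93 on design 1 and 1.76 on design 2. Then came miR-146a (0.87 and 1.97) and miR-151-5p (1.10 and 0.75). On design 2 miR-146a thus came close to miR-34a. By this ranking miR-34a had the largest distance of the 175 in these settings. It also did with arrays scaled over all miRNAs (1.37) or quantile normalized (1.94). Without a lower limit on signals miR-138 exceeded it. The distance of miR-34a was negative with normexp (-0.18) or with flagged spots kept (-2.02).

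The miR-34 family has further members. Of the 1738 mature mouse entries in the RefSeq sequence table used here, 4 carry bases 2 to 8 of miR-34a, miR-34a itself and the 3 shown here, with seeds in capitals. miR-34c and miR-449b, which are known to belong to the same seed family, were compared by name only.
miR-34b-5p: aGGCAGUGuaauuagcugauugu
miR-449a-5p: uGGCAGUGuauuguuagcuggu
miR-449c-5p: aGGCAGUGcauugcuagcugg

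None of the relatives was detected. The arrays carry probes for 5 miRNAs counted as sharing the seed, miR-34b-5p, miR-34c, miR-449a, miR-449b and miR-449c. They also carry probes for miR-34b-3p and miR-34c*, which are not counted as sharing it. Of the 2240 spots of these 7 miRNAs, 6 were well above background, and 1 of these lay among the 840 spots on spleen DC arrays. All 7 were below the detection threshold on every array, and the highest mean signal of any of them on any array was 0.781, in miR-34b-5p on PDC replicate 2. That signal is under the negative control median of every array.

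These relatives are not identical to miR-34a in the stretch the probes pair with. Aligned without gaps, miR-34b-5p matches the shorter miR-34a probe at 11 of its 19 bases, miR-449a at 12 and miR-449c at 10. These counts understate the likeness where a gap would bring further bases into line, as in miR-34b-5p, which has 23 bases against the 22 of miR-34a. miR-34c and miR-449b were not compared by sequence, and cross-reaction of the probes was not tested. The other arm of the hairpin, miR-34a*, was not analysed here.

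**Figure D4:**
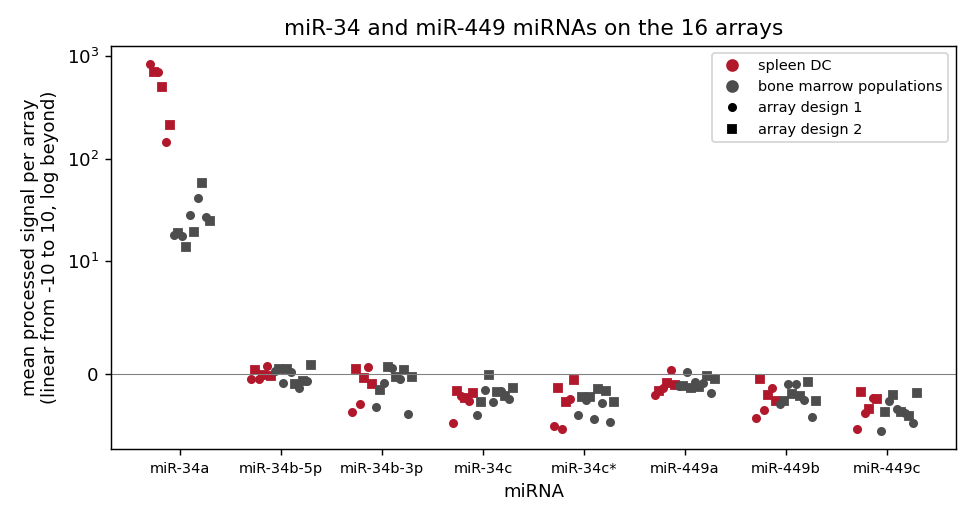
The vertical axis gives the mean processed signal per array, linear near 0 and logarithmic beyond 10, for miR-34a and 7 related miRNAs on the horizontal axis. Each marker is 1 of the 16 arrays, red for spleen DC; the relatives lie around 0 on every array, and since probes differ in brightness only their place relative to background can be read.

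The arrays also hold other miRNAs linked to p53 through their transcription or their processing. Of 12 listed, 4 were tested and 8 were not detected often enough. From CDP to the mean of the spleen DC, 3 of the 4 were higher and 0 lower. They were miR-15a at 1.53 ± 0.088 (limma adjusted p = 1.04e-06), miR-16 at 0.97 ± 0.086 (limma adjusted p = 1.33e-05) and miR-107 at 0.87 ± 0.10 (limma adjusted p = 9.15e-05). miR-192 was at 0.09 ± 0.083 and not called. It was detected on 4 arrays and not in CDP, where its values are the lower limit set on signals. The median of the 4 was 0.92, against 0.26 over all miRNAs tested and 37.1 percent called higher. In 2 comparisons miR-34a was not called higher under the settings used here, and 3 of the 4 were. These were PDC minus CDP (median 1.00, where 25.7 percent of all miRNAs were called higher) and monocytes minus MDP (median 1.04, where 20 percent were). For PDC minus CDP the sign of the miR-34a difference depended on the PDC array. Between CD8+ DC and the other spleen DC, where miR-34a fell, 0 of the 4 were called by limma (adjusted p from 0.352 to 0.986). Of the 4, 0 had an unadjusted p under 0.05. The activity of p53 was not measured, and its part in any of these levels was not tested.

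A second list held miRNAs with known roles in DC and macrophages. Of 12 listed, 11 were tested, 7 were higher in spleen DC than in CDP, 3 were lower and 1 was not called, with a median of 0.91. Of all miRNAs 37.1 percent were called higher and 19.4 percent lower. The largest change was that of miR-146a, a brake on Toll-like receptor signalling, at 5.55 ± 0.25 (limma adjusted p = 4.49e-07). miR-142-5p, a miRNA of blood cells, rose by 1.98 ± 0.14 (limma adjusted p = 4.19e-06). miR-221, known for targeting the receptor Kit, fell by 1.99 ± 0.13 (limma adjusted p = 2.2e-06). In CD8+ DC against the other spleen DC, 4 of the 11 were higher (25.7 percent of all miRNAs were), 0 were lower (also at an unadjusted p under 0.05), and miR-221 was among the higher ones at 1.23 ± 0.14 (limma adjusted p = 0.000397), opposite in sign to miR-34a.

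The sorted cells were checked against 19 miRNAs typical of other cells. Of these, 6 were tested, and 3 were higher in spleen DC than in CDP, where 37.1 percent of all miRNAs were. They were miR-150 of lymphocytes (3.61 ± 0.46, limma adjusted p = 0.000122), miR-451 of erythroid cells (3.67 ± 0.88, limma adjusted p = 0.00598) and miR-200b of epithelium (0.47 ± 0.15, limma adjusted p = 0.0218). By subset, miR-451 was not called in CD4-CD8- DC (2.50 ± 1.08, limma adjusted p = 0.102). miR-200b was called only in CD4+ DC (0.98 ± 0.18, limma adjusted p = 0.00136), and its values in CDP, where it was not detected, are the lower limit set on signals. miR-126-3p of endothelium and early progenitors was lower, by -2.64 ± 0.18 (limma adjusted p = 3.23e-06). It was not detected in any spleen DC population, so the size of this difference depends on the lower limit set on signals. The markers of stroma, muscle and liver were detected on 0 arrays. The summed level of the 19, as a multiple of the scaling percentile, was 0.637 to 1.68 on spleen DC arrays, 0.612 to 1.17 on PDC arrays, 0.4 to 0.902 on MP arrays and 0.0915 to 0.169 on the others.

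Their part in the miR-34a difference was not tested. PDC arrays had miR-150 at 0.462 and 0.683 of the scaling percentile, within the 0.178 to 0.918 of the spleen DC arrays, with miR-34a as low as in the other marrow populations. CD8+ DC arrays, the lowest of the spleen in miR-34a, had summed levels of 1.68 and 1.16, against 0.637 to 1.15 on the other spleen DC arrays. CD8+ DC replicate 2, at 1.16, was nearly equal to CD4-CD8- DC replicate 2 at 1.15 and to PDC replicate 2 at 1.17. Of the 6 markers 1, miR-486 of erythroid cells, was called higher in CD8+ DC (0.69 ± 0.12, limma adjusted p = 0.00288), beside 25.7 percent of all miRNAs. It was not detected in the other spleen DC. In bulk samples of this kind, more cells of a type and more RNA per cell cannot be told apart.

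The miRNAs most like miR-34a across populations were found by Pearson's r over the 8 population means, among the 115 miRNAs whose means spanned at least 1 on the log2 scale. These r values are descriptions over 8 points that share arrays and scaling, and 14 of the 175 miRNAs share the split between spleen DC and marrow. The median r was 0.13 and 1 miRNA exceeded 0.9. That miRNA was miR-361 (r = 0.92, with 0.90 on design 1 and 0.91 on design 2). miR-30a (0.89), miR-709 (0.89), miR-28 (0.86), miR-690 (0.85), miR-146a (0.85), miR-423-5p (0.85), miR-151-5p (0.85), miR-155 (0.82) and miR-142-3p (0.79) completed the 10 highest.

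The sequences of 3 of them, and of the miRNA most opposite to miR-34a, are given because their levels are described next. They come from RefSeq, seeds are in capitals, and none has the seed of miR-34a.
miR-361: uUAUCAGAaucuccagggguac
miR-146a: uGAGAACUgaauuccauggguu
miR-155: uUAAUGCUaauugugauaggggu
miR-148a: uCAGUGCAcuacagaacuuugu

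miR-361 followed miR-34a within the spleen too. Its log2 values were -2.60 and -2.40 in CD4+ DC, -3.12 and -2.94 in CD8+ DC, and -2.60 and -2.64 in CD4-CD8- DC. In the marrow it ran from -4.12 to -3.29. Its whole span of 1.43 was small beside the 5.13 of miR-34a, and it was lower in CD8+ DC than in the other spleen DC by -0.47 ± 0.12 (limma adjusted p = 0.0147).

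miR-146a had a comparable span of 5.99 but another place for PDC. Its values were 1.15 and 1.15 in CD4+ DC, 0.32 and 0.38 in CD8+ DC and 0.69 and 0.56 in CD4-CD8- DC. PDC gave -0.54 and -1.59, between spleen DC and the remaining marrow arrays, which ran from -4.96 to -3.92. Low miR-34a and intermediate miR-146a thus occurred in the same PDC arrays.

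miR-155, induced in activated immune cells, differed from miR-34a at MP. MP gave -2.18 and -1.51, inside the range of the spleen DC arrays, -2.42 to -0.76. It was not detected in monocytes. miR-151-5p was detected only on the 6 spleen DC arrays and the PDC arrays, so its values in MP, MDP, CDP and monocytes are the lower limit set on signals and carry no order. The same holds for miR-28, which was detected on the same arrays only.

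At the other end of the scale stood miR-148a (r = -0.93, with -0.92 and -0.94 on the designs), which is known to damp DC activation. Its values were -4.58 to -3.53 on spleen DC arrays and -2.91 to -1.68 on marrow arrays, without overlap. In CD8+ DC it was higher than in the other spleen DC by 0.55 ± 0.12 (limma adjusted p = 0.00824), where miR-34a was lower. The next lowest r values were those of miR-378 (-0.87), miR-27b (-0.83), miR-93 (-0.80) and miR-669f (-0.79).

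**Figure D5:**
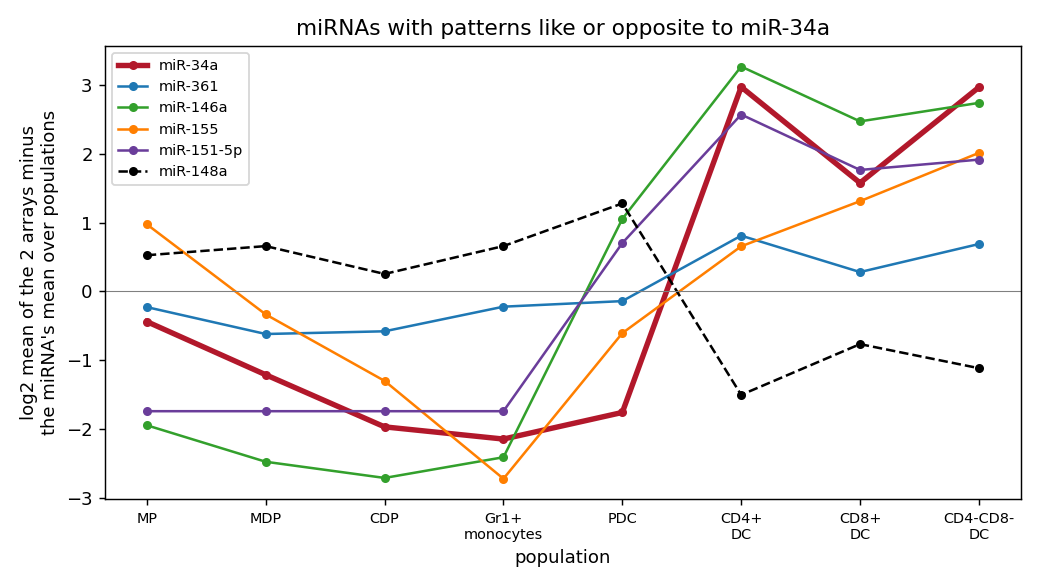
The vertical axis gives each miRNA's population mean (of 2 arrays) minus its own mean over the 8 populations on the horizontal axis, in log2 units. miR-34a is the thick red line. miR-361 follows it from marrow to spleen and within the spleen with a smaller span, but has another order within the marrow. miR-146a and miR-151-5p are already raised in PDC, miR-155 is raised in MP, and miR-148a (dashed) is lower in the 3 spleen DC populations.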

How the data were processed

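Small RNAs of 16 samples were labelled with Cy3 and hybridised to 1-colour Agilent miRNA arrays, 8 of each of 2 designs. The deposited values are spot intensities after background subtraction by Agilent Feature Extraction, version 10.7.3.1 per the file headers and 9.1 per the submitters' processing notes. Spots with outlier flags were left out, spots were averaged per probe and probes per miRNA, and each array was divided by its 75th percentile over the 88 miRNAs detected on all arrays. Values under the 5th percentile of detected signals of the design were raised to it (-5.32 and -5.78 in log2 units), and log2 was taken. limma 3.58.1 in R 4.3.3 fitted 8 population means with the array design, which is the replicate number, as a block, on the 175 miRNAs that were detected in the 2 replicates of 1 or more populations. Adjusted p-values are Benjamini-Hochberg over these 175 within a comparison, two-sided, and a call is an adjusted p under 0.05. Contrasts had 8.52 residual degrees of freedom after moderation. The fit was tested on simulated data.

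The block follows the labels' replicate number, which marks the array design. Same-numbered arrays of all 28 pairs of populations deviated together (r from 0.293 to 0.916, median 0.57, above 0.1 in 28 pairs). The values used include miRNAs at the lower limit, which is -5.32 on design 1 and -5.78 on design 2. Part of each r is thus set by the processing, and r without those miRNAs was not computed. Replicates are separate animal pools per the labels. The miRNA, the lists of miRNAs, the comparisons and the alternatives were chosen with earlier results of these data known. Named miRNAs are miR-34a, its relatives by seed, the 10 highest and 5 lowest by r, and of each list the counts and up to 4 members with the smallest p, with the miRNA nearest on the chromosome. Outside this rule, miR-342-3p and miR-138 were named for their distance between spleen DC and marrow arrays. A miRNA that fits more than 1 part of this rule is named under each. The alternatives were other scalings (all miRNAs, quantile), normexp background, the brightest probe, the software's summary per miRNA, no lower limit, flagged spots kept, no block, 2 other filters, and each array left out. The deposited series table equalled the scanner values at 3 digits and was not tested separately.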

Additional observations from a re-analysis of the deposited data

How the results depend on the processing

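The rise of miR-34a from CDP to spleen DC kept its direction and call under all 10 alternatives (2.55 with the normexp background to 4.75) and with each array left out (4.38 to 4.59). The comparisons of spleen DC with PDC and with monocytes, of each spleen DC population with CDP, and the F test did so too. For CD8+ DC against the other spleen DC, normexp gave -1.13 and flagged spots kept gave -1.46, both not called. Monocytes minus MDP was not called with scaling over all miRNAs (-0.96), quantile normalization (-0.93), the brightest probe (-0.95), flagged spots kept (-0.99) or all miRNAs tested (-0.94), was not called with any 1 array left out (-0.99 to -0.89), and was 0.57 with normexp. PDC minus CDP was -0.31 with scaling over all miRNAs, -0.15 with normexp and -0.29 to 0.71 with 1 array left out. PDC minus monocytes was -1.15 with normexp and -0.11 to 0.89 with 1 array left out. CD4+ DC minus CD4-CD8- DC ran from -0.18 to 0.19 with 1 array left out. Of the 7 neighbouring pairs, 0 were called with normexp or flagged spots kept, 1 with all miRNAs tested, and 1 to 4 with 1 array left out. The cause of these changes was not tested. Fits with 1 array left out hold fewer samples, and the setting with all miRNAs tested adjusts over more miRNAs. The fit with no replicate block changed no call of miR-34a in the 13 comparisons, the F test or the 28 pairs (spleen DC minus CDP 4.48). In fits that leave 1 array in a population, that array is assumed to vary like the others.

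Counts of called miRNAs moved more. For spleen DC minus CDP, 99 became 43 with normexp, and for CD8+ DC minus CDP, 121 became 77 with scaling over all miRNAs and 40 with normexp. For CD8+ DC against the other spleen DC the 59 became 1 with normexp, 36 with all miRNAs tested and 37 without either CD8+ DC array. With normexp the 72 of spleen DC minus monocytes rose to 123 and the 72 of PDC minus monocytes to 124. Scaling over all miRNAs moved the median of all miRNAs by -0.71 in the first of these comparisons and quantile normalization by -0.30. Signals near background limit what can be said of miR-34a within the marrow.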

Other observations

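On chromosome 4, where the array annotation places 33 miRNAs, those nearest to miR-34a are the miR-200 cluster, 5.99 Mb away in build mm9. Of its members on the arrays, miR-429, miR-200a, miR-200a* and miR-200b* were detected on 0 arrays. miR-200b was detected on 6 arrays and was among the 14 miRNAs with all spleen DC arrays above all marrow arrays on both designs, by a distance of 0.005 on design 1 and 0.12 on design 2. It was not detected in any marrow population, so these distances are measured from the lower limit set on signals.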
